A study of Mus musculus with 38 samples.

Results

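Kinesins, cytoplasmic dynein and dynactin are the machines that carry cargo along microtubules, and their mRNAs were followed here through ribosome-protected fragments (footprints) of primary mouse cortical neurons. Members were all protein-coding genes whose symbol begins with Kif, Klc, Dync, Dynl or Dctn followed as in the family's usual names, which gave 65 of 22375 genes with a coding sequence (CDS) in the data. The choice used names only and no measured value. One of them, Kif1bp, a kinesin-binding protein, is a member by its name and not by its function.

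Most kinesins walk toward the plus ends of microtubules and carry vesicles, organelles and RNA granules outward from the soma, while cytoplasmic dynein 1 walks to the minus ends and brings endosomes and signals back. Dynein 1 is built on a very long heavy chain that holds the motor, with intermediate, light intermediate and light chains around it, and it needs the dynactin complex and an adaptor for long runs. Dendrites hold microtubules of both orientations, so both motor classes serve them. Other kinesins act on the mitotic spindle, and dynein 2 returns cargo from the tips of cilia.

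Cultures were prepared from the cortex of CD-1 mouse embryos and carried a doxycycline-inducible lentiviral biotin ligase. TurboID-PSD95 joins the ligase to targeting elements of PSD95, a scaffold of dendritic synapses, and Pan-TurboID is the ligase alone. Each sample gave an input library, from a small share of the monosomes, and a pulldown library of the footprints that streptavidin held. All neurons received cycloheximide, which stops elongation, for 2 min and then, by the order in the methods, biotin, for 30 min according to the labels. For DHPG the methods place the biotin in a shorter window after the drug was removed, so the labeling time of those pulldowns is uncertain. The KCl experiment held 8 groups of 3 libraries, namely input and pulldown of each bait, either at rest or silenced with tetrodotoxin and DL-AP5 and then exposed for 1 h to 55 mM KCl. By the methods, fresh medium with biotin and the same silencers then replaced the KCl for 30 min. The DHPG experiment held 3 inputs and 3 pulldowns of TurboID-PSD95 neurons given DHPG, which activates a class of metabotropic glutamate receptors, at 100 µM during 10 min. By the methods, these neurons were first silenced in the same way and then washed before the drug. The knockdown experiment held 4 groups of 2 libraries, input and pulldown of TurboID-PSD95 neurons at rest and with KCl, all given 20 nM siRNA against the initiation factor eIF4G2 for 72 h. No untreated group of their own was analysed for the DHPG and knockdown experiments, so levels set across experiments are given without a test, because treatment and experiment cannot be told apart. Each library pools several dishes of a mixed culture. The study calls its replicates biological, and p-values measure the spread between these libraries.

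The 38 libraries held 2047337 to 14637747 counts in the CDSs used, of which 24631 to 249672 lay in the 65 members. Dlg4, which encodes PSD95 and is part of the bait, had 353 to 5096 CPM (counts scaled to a common library size) in TurboID-PSD95 pulldowns and 54.0 to 188 in the inputs of the same neurons. Eif4g2 had 211 to 319 CPM in the knockdown libraries and 334 to 769 elsewhere. Summed neuronal markers lay between 4963 and 10328 CPM, astrocyte markers between 82.9 and 842, microglial markers between 0 and 18.9, and oligodendrocyte markers between 14.9 and 469.

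The light chains carried some of the largest differences below, and some of their short CDSs resemble each other, so their starts are shown first. Dynll1 and Dynll2 encode the LC8 light chains, hub proteins shared by dynein and many other complexes. The first 30 coding bases are given from mm10, on the coding strand, with the bases that differ between the genes in capitals:
Dynll1, chr5:115300615-115300644, minus strand: atgtGCgaccggaaggcGgtgatcaaAaaT
Dynll2, chr11:87983974-87984003, minus strand: atgtCTgaccggaaggcAgtgatcaaGaaC
Over the whole 270 nt CDS they differ at 51 bases and are 81.1% identical, which leaves each gene with stretches of its own.

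The Dynlt1 genes, which encode TCTEX-type light chains, are different. The first 27 coding bases, again from mm10 with the differing base in capitals, show how little separates them:
Dynlt1a, chr17:6317374-6317400, minus strand: atggaagacttccaggcctcCgaggag
Dynlt1b, chr17:6430212-6430238, plus strand: atggaagacttccaggcctcAgaggag
Dynlt1c, chr17:6601810-6601836, plus strand: atggaagacttccaggcctcCgaggag
Dynlt1f, chr17:6655774-6655800, minus strand: atggaagacttccaggcctcCgaggag
Over 342 nt, Dynlt1a, Dynlt1c and Dynlt1f were identical, and Dynlt1b differed from them by 1 base, C21A counted from the first coding base with the base of Dynlt1a first. All 25-base words of Dynlt1a, Dynlt1c and Dynlt1f, 98.6% of those of Dynlt1b and 55.0% of those of Dynll1 occurred elsewhere in the genome. Counts of single Dynlt1 genes are therefore uncertain, and so in part are those of Dynll1. Calls of Dynlt1b or Dynlt1c below share this limit. Counts of light chains as a class include all of these Dynlt1 genes, so they do not count separate sequences. Among the 65 members, 12 had over 1% of such repeated words and 28 had none.

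Levels between genes were compared as RPKM, which corrects for CDS length and library size, as mean ± SD over the 19 inputs. Dynll1 was the most densely occupied member at 671 ± 158 RPKM, followed by Kif1a, the kinesin-3 that carries synaptic vesicle precursors, at 572 ± 126. Next came Dynlrb1, a roadblock light chain, at 481 ± 124, and then Dctn3 and Dctn2, which encode the p24 and dynamitin subunits of the dynactin shoulder, at 447 ± 144 and 385 ± 73.6. The order was not firm: Dynll1 exceeded Kif1a in 14 of 19 inputs, Kif1a exceeded Dynlrb1 in 15, and Dctn3 exceeded Dctn2 in 8. Dync1h1, the dynein 1 heavy chain, had only 83.2 ± 27.0 RPKM, but with a CDS of 13935 nt it held 9.49% of the member counts of an input on average, while Kif1a held 24.0%.

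By class, the 15 transport kinesins took 52.1% of member counts in inputs at a median of 48.3 RPKM, the 5 dynein 1 subunits 18.7% at 140 RPKM, and the 6 dynactin subunits 13.1% at 137 RPKM. The 11 mitotic kinesins had a median of 2.71 RPKM and 0.848% of the counts. Of the 13 remaining members with a Kif name, Kif1bp among them, 8 were under 1 RPKM. Kif12 and Kif2b had 0 counts in all libraries, and Kif28 and Dynlrb2 had 42 and 46 counts over the 38 libraries.

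As a share of all CDS counts, members made up 1.20%, 1.32% and 1.27% of the 3 resting TurboID-PSD95 inputs and 1.62%, 1.96% and 1.75% of the pulldowns. With DHPG the inputs had 1.40%, 1.42% and 1.41% and the pulldowns 1.75%, 1.81% and 1.86%. The pulldown had the larger share in each of the 19 same-numbered pairs, over a range of 1.32% to 1.96% in pulldowns against 1.07% to 1.42% in inputs. Members have longer CDSs, with a median of 2409 nt against 1101 nt for all genes. This share was not set beside that of other genes of like length.

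The first comparison asked which motor mRNAs were over-represented among ribosomes near the dendritic bait. In resting TurboID-PSD95 neurons, the dynein heavy chains and 10 of 15 transport kinesins were higher in the pulldown, and 5 of 8 light chains and 3 of 6 dynactin subunits were lower. Of 60 members tested (edgeR's quasi-likelihood test, adjusted p at 0.05), 13 rose and 8 fell, where 11.5% of all 13004 genes tested rose and 13.5% fell, so the share of members that fell is near that of all genes. Dync1h1 had 733, 1033 and 961 CPM in the inputs and 2343, 2288 and 2528 in the pulldowns, groups that do not overlap, a rise of 1.34 on the log2 scale (SE 0.26, adjusted p = 0.00339).

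Among the 15 transport kinesins 10 rose, none fell and all had positive values, with a median log2 fold change of 0.77 beside -0.05 for all genes. Kif1a read 2194, 3086 and 2477 CPM in the inputs and 3371, 6034 and 4354 in the pulldowns, with the lowest pulldown above the highest input (0.78, SE 0.24, adjusted p = 0.0227). Kif13b, a kinesin-3 that binds membrane-associated guanylate kinases, rose by 1.22 (SE 0.32, adjusted p = 0.00995), and Kif21a, a kinesin-4 that restrains microtubule growth, rose by 1.01 (SE 0.25, adjusted p = 0.0080). The kinesin-1 heavy chains Kif5a and Kif5b rose by 0.86 and 0.72, the kinesin-2 motors Kif3a, Kif3b and Kif3c by 0.78, 0.74 and 0.55, Kif17, which carries NMDA receptor subunits, by 0.90 and Kif1b by 0.75. The third kinesin-1 heavy chain, Kif5c, had 0.53 (adjusted p = 0.0611), and Kif21b had 0.50 (adjusted p = 0.0841).

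All 5 subunits of dynein 1 had positive values, and 1 passed. Its heavy chain rose, while the intermediate chains Dync1i1 and Dync1i2, which dock dynactin, had 0.32 and 0.35, and the light intermediate chains Dync1li1 and Dync1li2, which bind cargo adaptors, had 0.29 and 0.18, none past the threshold. Both members of dynein 2 rose, the heavy chain Dync2h1 by 1.24 (SE 0.37, adjusted p = 0.0199) and Dync2li1 by 0.85 (adjusted p = 0.0382), the latter higher in 2 of 3 pairs.

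Of 8 light chains tested, 5 fell, with a median of -1.14. Dynll1 had 137, 144 and 115 CPM in the inputs and 66.1, 56.8 and 49.6 in the pulldowns (-1.24, SE 0.29, adjusted p = 0.00614). Dynll2 had 66.7, 77.9 and 83.0 CPM against 21.8, 47.5 and 23.8 (-1.32, SE 0.29, adjusted p = 0.00458), and in neither gene did the groups overlap. Of 6 dynactin subunits 3 fell: Dctn2, with 506, 611 and 637 CPM in the inputs and 288, 349 and 283 in the pulldowns (-0.98, SE 0.22, adjusted p = 0.00495), Dctn3 (-1.06, adjusted p = 0.0113) and Dctn5 of the pointed end (-0.79, adjusted p = 0.0224). Dctn1, the large p150 subunit that grips the microtubule, had 0.10. The kinesin light chains, which select cargo for kinesin-1, had a median of -0.23 and 0 of 4 past the threshold.

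The count of 21 depended on single replicates: omitting replicate 1 left 20 calls, omitting replicate 2 left 6, and omitting replicate 3 left 0. With the replicate number as a block, since input and pulldown of a number come from the same monosomes, it was 31, and the adjusted p of Dync1h1 was 4.03e-08.

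**Figure D1:**
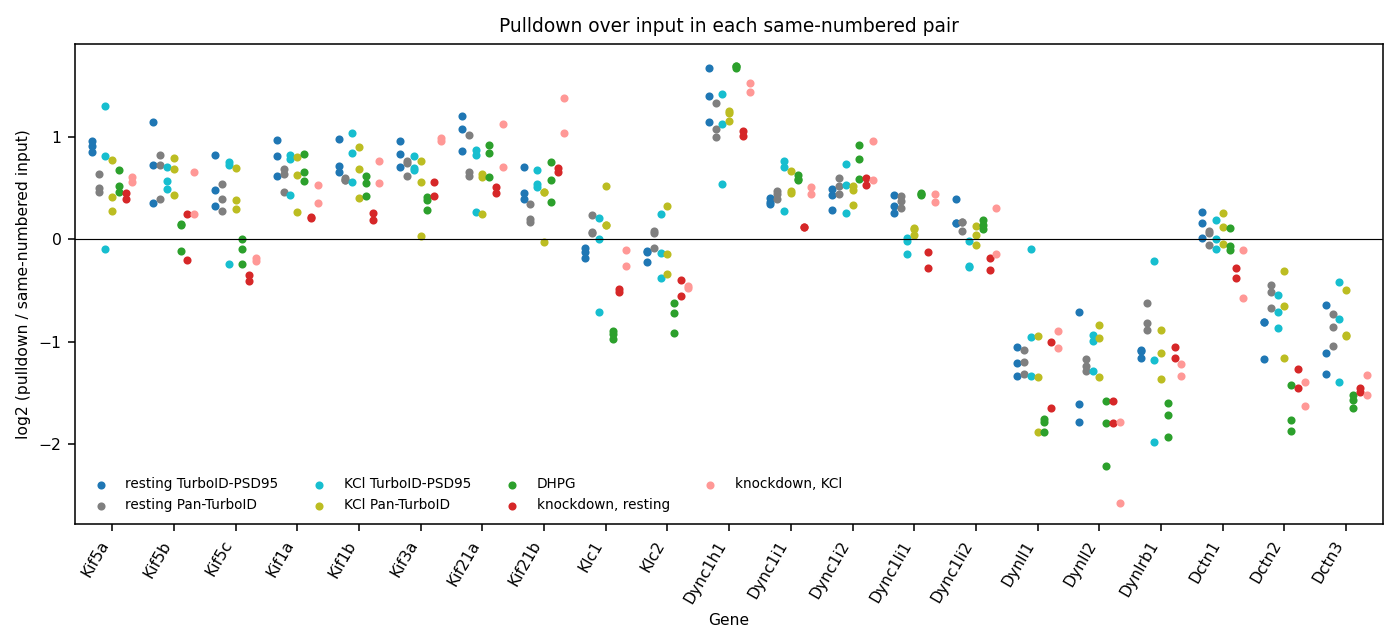
Log2 ratio of pulldown to same-numbered input (y axis) for 21 members (x axis), with 1 point per pair, coloured by group, 19 pairs per gene. Dync1h1, Kif1a, Kif1b, Kif3a and Kif21a lie above 0 in 19 of 19 pairs, and Dynll1, Dynll2, Dynlrb1, Dctn2 and Dctn3 lie below 0 in all 19.

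Of the 57 members tested in all 3 experiments, 22 kept 1 direction over all 19 pairs and 35 went both ways. Higher in every pair were 21.1% of these members and 14.1% of 11777 genes tested in all 3, and lower in every pair were 17.5% and 15.02%. The genes set beside the members were not matched for CDS length. Dync1h1, Dync1i1, Dync1i2, Dync2h1, Dctn4, Kif1a, Kif1b, Kif3a, Kif3b, Kif3c, Kif21a and Kif26b, 12 in all, were higher in the pulldown of every pair, and Dync1h1 ranged from 0.54 to 1.70 with a median of 1.26. Dynll1, Dynll2, Dynlrb1, Dynlt1b, Dynlt1c, Dynlt1f, Dynlt3, Dctn2, Dctn3 and Dctn6 were the 10 that were lower in every pair. Others went both ways, among them Kif5a and Kif21b higher in 18 pairs, Kif5b and Kif17 in 17, Dync1li1 in 15, Dync1li2 in 12, Kif5c in 11, Dctn1 in 9 and Klc1 in 7.

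The fold changes followed the length of the CDS. The 8 light chains tested had CDSs under 500 nt, where the median of all genes in the resting TurboID-PSD95 comparison was -1.09 and that of the members -1.14. At 5000 nt and above the medians were 0.65 for all genes and 0.78 for the 11 members. Across members, the rank correlation of fold change and CDS length lay between 0.60 and 0.75 over the 7 pulldown comparisons, and across all genes between 0.51 and 0.62, which is a description, since genes share their libraries and are not replicates.

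With the length trend over all genes taken out, 2 members kept their call in resting TurboID-PSD95 neurons, Dctn2 at -1.01 (adjusted p = 0.00373) and Dync2li1 at 0.91 (adjusted p = 0.0372), beside 5.6% of genes called higher and 8.61% lower. Dync1h1 then had 0.46 (adjusted p = 0.116) and Dynll1 -0.17 (adjusted p = 0.574). Dctn2, whose CDS has 1209 nt, stood apart from its length class, where all genes from 1000 to 2000 nt had a median of 0.07. Resting Pan-TurboID neurons (3.11% of all genes called) and both baits after KCl (4.66% and 2.33%) then had 0 members past the threshold by edgeR, with 6, 6 and 5 at an unadjusted p under 0.05. Once length was taken out, Dctn2 also had -1.69 after DHPG, -1.34 in the resting knockdown and -1.55 in the depolarized knockdown.

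**Figure D2:**
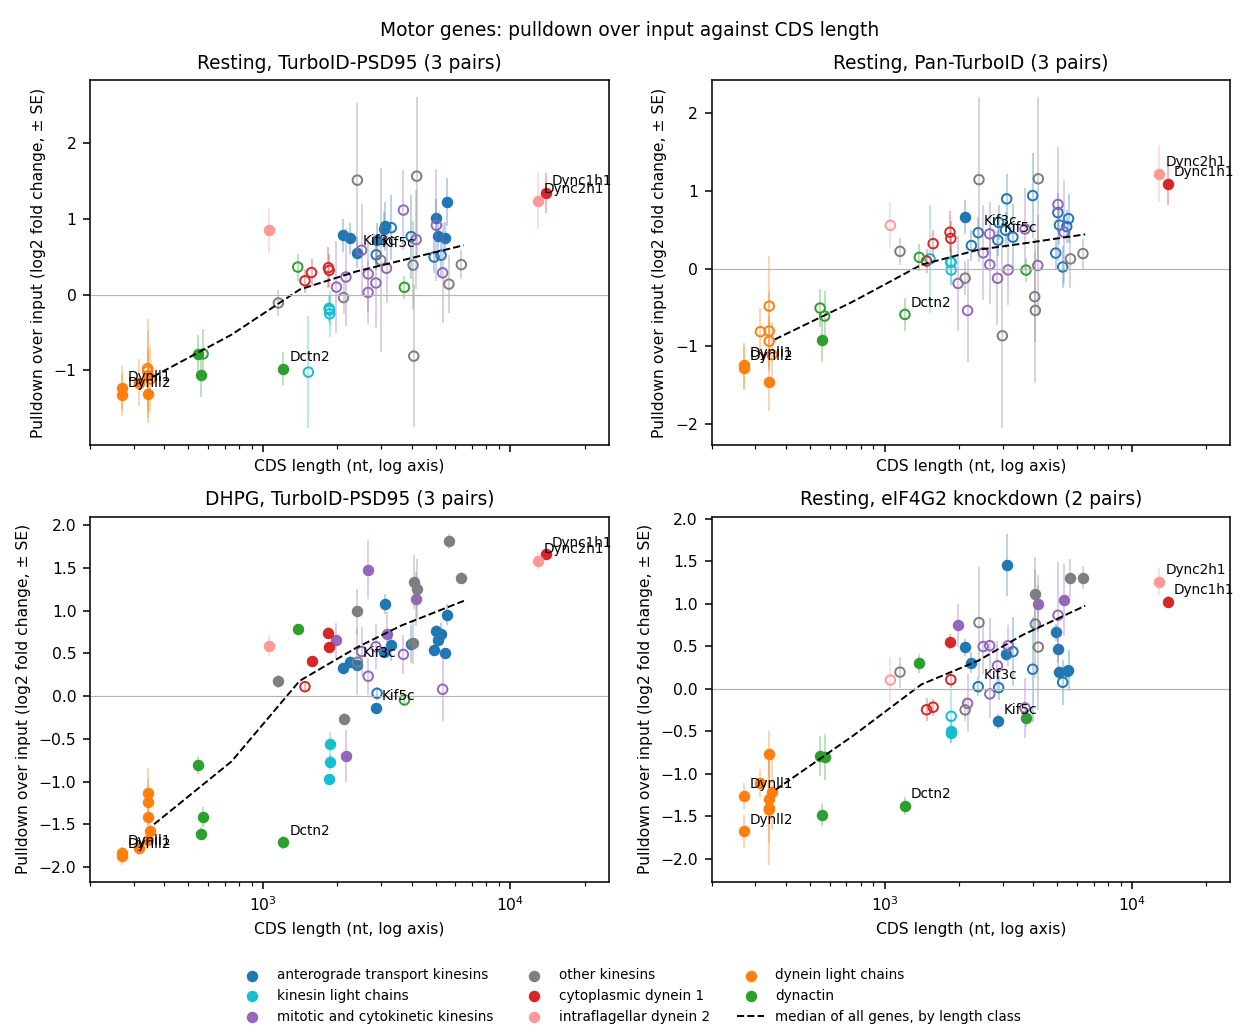
Log2 fold change of pulldown over input (y axis, bars are SE) against CDS length (x axis, log scale) for the tested members in 4 comparisons, filled where the call passed an adjusted p of 0.05. The dashed line is the median of all genes by length class, and Dctn2 at 1209 nt lies below it in each panel.

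The same pulldown was then read with the bait that has no localization signal. In resting Pan-TurboID neurons 3 of 60 members rose and 4 fell, where 4.52% of all genes rose and 5.04% fell. Dync1h1 had 943, 1081 and 1117 CPM in the inputs and 2368, 2286 and 2230 in the pulldowns, which do not overlap (1.09, adjusted p = 0.0208), and Dync2h1 and Kif3a rose by 1.22 and 0.67. Dynll1 (-1.24, adjusted p = 0.0197), Dynll2 (-1.28, adjusted p = 0.0190), Dctn3 (-0.92) and Dynlt1c (-1.46) fell. The test of the difference between the baits called 0 of 60 members by edgeR's quasi-likelihood test, with 0 at an unadjusted p under 0.05, beside 0.00769% of all genes called. The likelihood ratio test and DESeq2 also called 0, each with 1 member at an unadjusted p under 0.05. The smallest p was that of Klc1, which had -0.34 (SE 0.17, adjusted p = 0.99998). These p-values do not show that the baits gave equal values.

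After KCl, 5 members rose and 2 fell in TurboID-PSD95 pulldowns (8.22% and 4.39% of all genes), and 2 rose and 6 fell with Pan-TurboID (5.19% and 3.7%). Dync1h1 rose by 1.08 (adjusted p = 0.0138) and by 1.21 (adjusted p = 0.0166). Its TurboID-PSD95 values spread widely, from 1165, 708 and 708 CPM in the inputs to 2544, 1033 and 1894 in the pulldowns, so that the lowest pulldown lay below the highest input. Kif5a, Kif1b, Kif3a and Kif3c were the other members that rose with TurboID-PSD95, by 0.73, 0.80, 0.73 and 0.69. The pulldown ratio after KCl did not pass the test of a difference from rest in any of 60 members by edgeR's quasi-likelihood test, with 1 at an unadjusted p under 0.05 and 0% of all genes called. The likelihood ratio test gave 0 and 2, DESeq2 gave 0 and 3, and the smallest p was that of Kif4, a mitotic kinesin (-1.87, SE 0.76, adjusted p = 0.999925). On simulated data the quasi-likelihood test of this difference recovered 3.03% of 2-fold and 44.4% of 4-fold changes. A count of 0 here therefore does not show that the ratios were equal.
These 3 sets of calls were 7, 7 and 8 in all, and 23, 26 and 23 with the replicate block. Each count was 0 without replicate 3, and those of Pan-TurboID at rest and after KCl were also 0 without replicate 2.

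In the DHPG experiment the libraries of a group lay closer together, and 31 of 58 members tested rose and 18 fell, where 40.5% of all genes rose and 39.3% fell. Dync1h1 had 1851, 1846 and 1818 CPM in the inputs and 5992, 5980 and 5782 in the pulldowns, well apart, a rise of 1.66 (SE 0.05, 3.15-fold, adjusted p = 2.14e-14). Kif26a, an atypical kinesin without motor activity, had 47.0, 41.1 and 40.0 CPM in the inputs and 144, 144 and 171 in the pulldowns, and rose by 1.81 (SE 0.09).

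Of 15 transport kinesins 13 rose and 1 fell, with Kif17 at 1.08, Kif13b at 0.95, Kif21a at 0.76, Kif1a at 0.66, Kif21b at 0.54, Kif5a at 0.52, Kif1b at 0.50, Kif3b at 0.40 and Kif3a at 0.33. Of dynein 1, the heavy chain, both intermediate chains (Dync1i2 0.73, Dync1i1 0.57) and Dync1li1 (0.41) rose, while Dync1li2 had 0.11. The kinesin-1 heavy chains came apart here: Kif5a rose, Kif5b had 0.03, and Kif5c, with 802, 818 and 794 CPM in the inputs and 680, 766 and 793 in the pulldowns, fell by 0.14 (adjusted p = 0.0366, and 0.0587 with the replicate block).

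All 8 light chains tested fell after DHPG, with a median of -1.63, and so did 4 of 6 dynactin subunits and all 3 kinesin light chains tested. The 8 include the near-identical Dynlt1 genes. Dctn2 had 493, 518 and 472 CPM in the inputs and 135, 152 and 175 in the pulldowns (-1.71). Klc1 had 685, 758 and 738 CPM against 368, 385 and 388 (-0.97), so its groups do not overlap, and Klc2 had -0.77. Dynll1, Dynll2, Dynlrb1 and Dctn3 fell by 1.83, 1.87, 1.77 and 1.61 on the log2 scale, while the pointed-end subunit Dctn4 rose by 0.78 and Dctn1 had -0.05.
With the length trend taken out 11 members rose and 22 fell (32.3% and 35.3% of all genes), and Dync1h1 had 0.19 (adjusted p = 0.0015). The transport kinesins turned as a class, with 1 higher and 7 lower and a median of -0.18 in place of 0.54. Kif1a, Kif1b, Kif5a, Kif5b, Kif21a, Kif21b, Kif3a and Kif3b then had -0.29, -0.49, -0.14, -0.59, -0.18, -0.39, -0.077 and -0.058.

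In resting eIF4G2 knockdown neurons 18 of 58 members rose and 15 fell (22.1% and 23.4% of all genes), and with KCl 26 rose and 15 fell (24% and 24.8%). Dync1h1 had 1495 and 1476 CPM in the resting inputs and 3115 and 2973 in the pulldowns (1.02, 2.03-fold). With KCl it had 1080 and 1107 CPM in the inputs and 3119 and 2998 in the pulldowns (1.43, 2.69-fold), again with no overlap. At rest Kif17, Kif26b, Kif26a and Dync2h1 rose by 1.46, 1.31, 1.30 and 1.26, and Kif21b, Kif3a and Kif5a by 0.66, 0.48 and 0.41. Of the 15 transport kinesins 8 rose and 1 fell at rest, but with the length trend taken out none rose and 7 fell (median 0.23 and then -0.35), and Kif21b and Kif5a had -0.15 and -0.12. With KCl 9 rose and 1 fell, and 2 and 4 with length taken out.

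In the knockdown most light chains and dynactin subunits fell. At rest Dynll2, Dctn3, Dctn2, Dynll1 and Dynlrb1 had -1.68, -1.49, -1.38, -1.26 and -1.11, and 7 of 8 light chains and 5 of 6 dynactin subunits fell. The remaining dynactin subunit, Dctn4, rose by 0.30 at rest and 0.35 with KCl. Kif5c had 877 and 814 CPM in the resting inputs and 691 and 615 in the pulldowns, below the inputs in both pairs (-0.39), and fell with KCl too (-0.26). Dctn1 fell by 0.34 and 0.38 and Klc1 by 0.52 and 0.24 on the log2 scale. With 2 libraries per group, the count of 33 at rest was 19 with the length trend taken out (33.1% of all genes called), where Dync1h1 turned to -0.26 (adjusted p = 0.0028), 19 without either resting input and 24 or 26 without a pulldown. With KCl it was 23 with the trend taken out (35.7% of all genes).

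Further genes were counted for context, from a list of 44 partners and a list of 16 other motors. The partners are mostly adaptors and regulators. The partner name Kifbp is another symbol of the member Kif1bp, so it adds no gene apart from the members. They also include Kifap3, a kinesin subunit, and the dynactin components Actr1a, Actr1b, Actr10, Capza1, Capza2 and Capzb, which are not among the members. The other motors are myosins, kinesin-14 motors and the mitotic kinesin Cenpe. Of the partners, 9 of 42 tested rose and 2 fell in resting TurboID-PSD95 neurons, with a median of 0.10, beside 11.5% and 13.5% of all genes, and 16 of 40 rose and 15 fell after DHPG, beside 40.5% and 39.3%. With the length trend taken out, 3 partners rose and 7 fell at rest, and 7 rose and 19 fell after DHPG. Of the other motors, which have long CDSs, 8 of 16 rose and none fell at rest (median 0.99), and 13 of 15 rose and none fell after DHPG. With length taken out, 3 rose and none fell at rest, and 9 rose and 1 fell after DHPG.

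Motor footprints in the inputs also differed between resting and KCl-treated neurons. The KCl groups were silenced before KCl and, by the methods, again after it, so silencing and KCl cannot be told apart. Over the inputs of both baits 6 of 60 members rose and 9 fell, where 6.33% of all genes rose and 9.03% fell. Kif3c, the neuronal kinesin-2 heavy chain, had 199, 183 and 212 CPM in resting and 130, 72.9 and 84.7 CPM in depolarized TurboID-PSD95 inputs. In Pan-TurboID inputs it had 173, 212 and 211 against 99.9, 83.4 and 76.4. The groups do not overlap with either bait, and the fall was 1.16 on the log2 scale (SE 0.15, adjusted p = 3.01e-06).

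Kif5c (-0.79, adjusted p = 0.000462), Kif1b (-0.78, adjusted p = 0.000599), Kif2a, a microtubule depolymerase that trims neurites (-0.68), Kif21b (-0.67), Kif13a (-0.62), Kif5b (-0.57), Dctn2 (-0.53) and Kif26b (-0.49) also fell. Kif26a had 12.4, 16.9 and 13.0 CPM in resting and 27.8, 37.1 and 23.1 in depolarized TurboID-PSD95 inputs, and 12.4, 19.7 and 9.63 against 54.6, 46.3 and 25.4 with Pan-TurboID. Every depolarized input exceeded every resting input of its bait, a rise of 1.29 (SE 0.27, adjusted p = 0.0014). Dynlt1b, Dctn3, Dctn6, Dynll1 and Dctn4 rose by 0.87, 0.72, 0.70, 0.62 and 0.54. By class, 6 of 15 transport kinesins fell and none rose (median -0.39), all 8 light chains had positive values with 2 past the threshold (median 0.67), and none of 5 dynein 1 subunits passed. This contrast runs along CDS length too, with a rank correlation of fold change and length of -0.46 across members and -0.33 across all genes. Under 500 nt, where the light chains lie, all genes had a median of 0.42, and with the length trend taken out the medians were -0.23 for transport kinesins and 0.25 for light chains. Neuronal markers summed to 6976 to 7658 CPM in resting and 5554 to 7212 in depolarized TurboID-PSD95 inputs, and to 7154 to 7627 and 6365 to 10328 with Pan-TurboID, and their part was not tested.
The count of 15 became 20 when replicate 1 was omitted, 4 when replicate 2 was omitted and 3 when replicate 3 was omitted, and Kif3c and Kif26a passed in each of these.

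In TurboID-PSD95 pulldowns 4 of 60 members rose and 4 fell after KCl (3.31% and 3.28% of all genes), and in Pan-TurboID pulldowns 1 rose and 4 fell (1.87% and 3.16%). Kif3c fell in both, by 0.95 and 1.05 on the log2 scale, as did Kif5c (0.84 and 0.75) and Kif1b (0.75 and 0.70). With the replicate block Kif1b no longer passed in either (adjusted p = 0.0691 and 0.0844). Kif26a rose by 1.42 and 1.82. Dynll1, Dctn3 and Dynlt1b rose by 1.16, 1.09 and 1.38 with TurboID-PSD95. The count of 8 with TurboID-PSD95 was 3 with the length trend taken out (5.25% of all genes called). Without replicate 2 or replicate 3 it was 0 and that of 5 with Pan-TurboID was 1. Neuronal markers summed to 5989 to 6692 CPM in resting and 5207 to 5424 in depolarized TurboID-PSD95 pulldowns. With Pan-TurboID they summed to 7413 to 8155 and 6312 to 9382, which overlap, and their part was not tested.

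The knockdown neurons gave a set of KCl libraries that shares none with the KCl experiment. In their inputs 8 of 58 members rose and 10 fell (8.92% and 10.4% of all genes). Of the 15 members called in the inputs of the KCl experiment, 10 (66.7%) were called the same way here, which is 55.6% of the 18 called here, and 0 were called the opposite way. Over all genes the same shares were 50.9% and 43.2%, with 1017 genes called the same way and 4 the opposite way. Those 10 were Kif3c, Kif1b, Kif5b, Kif5c, Kif2a and Kif21b, which fell, and Kif26a, Dctn3, Dynll1 and Dynlt1b, which rose. Kif3c had 224 and 213 CPM at rest and 74.4 and 85.9 with KCl, a wide gap (-1.44, SE 0.12). Kif1b had 1049 and 1060 CPM at rest against 519 and 471 (-1.07). Dync1h1 fell by 0.42, Kif3a by 0.36 and Dync1i1 by 0.31 on the log2 scale here, whereas none of the 3 passed in the KCl experiment, a difference that was not tested. In these knockdown inputs the neuronal markers summed to 8134 to 8355 CPM at rest and 6328 to 6480 with KCl. The astrocyte markers summed to 464 to 478 and 615 to 635, and the part of these markers was not tested. The count of 18 was 9 or 10 without a resting input and 11 or 12 without a depolarized input.

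In knockdown pulldowns 15 of 58 members rose after KCl and 6 fell (10.2% and 12% of all genes). Kif5c, Kif3c, Kif1b and Kif2a fell again, by 0.85, 0.78, 0.68 and 0.61 on the log2 scale. Much of the rise came from mitotic kinesins, of which 7 of 11 rose and all 11 had positive values (median 1.27). Some are sparse: Kif14 and Kif20b had 635 and 1072 counts over all 38 libraries. Kif18a, which aligns chromosomes, had 11.9 ± 1.26 CPM at rest and 45.5 ± 4.66 with KCl (SD, n = 2, log2 difference 1.92), and Kif11, the spindle motor Eg5, had 25.4 and 23.4 against 62.1 and 67.5 (1.38). Neither gene's groups overlap. A list of 6 markers of dividing cells, none of them a member and none at 0 in any group, moved the same way. Their summed level was 425 to 445 CPM in resting and 650 to 720 in depolarized knockdown pulldowns, 190 to 214 and 266 to 267 in the inputs, 61.7 to 282 in the KCl experiment and 37.4 to 101 with DHPG. Of these 6 markers 3 rose and 0 fell in the knockdown pulldowns. In the same pulldowns the 6 neuronal markers summed to 6682 to 6868 CPM at rest and 4963 to 4977 with KCl, and the astrocyte markers to 430 to 543 and 607 to 842. The part of these markers in the result was not tested.

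**Figure D3:**
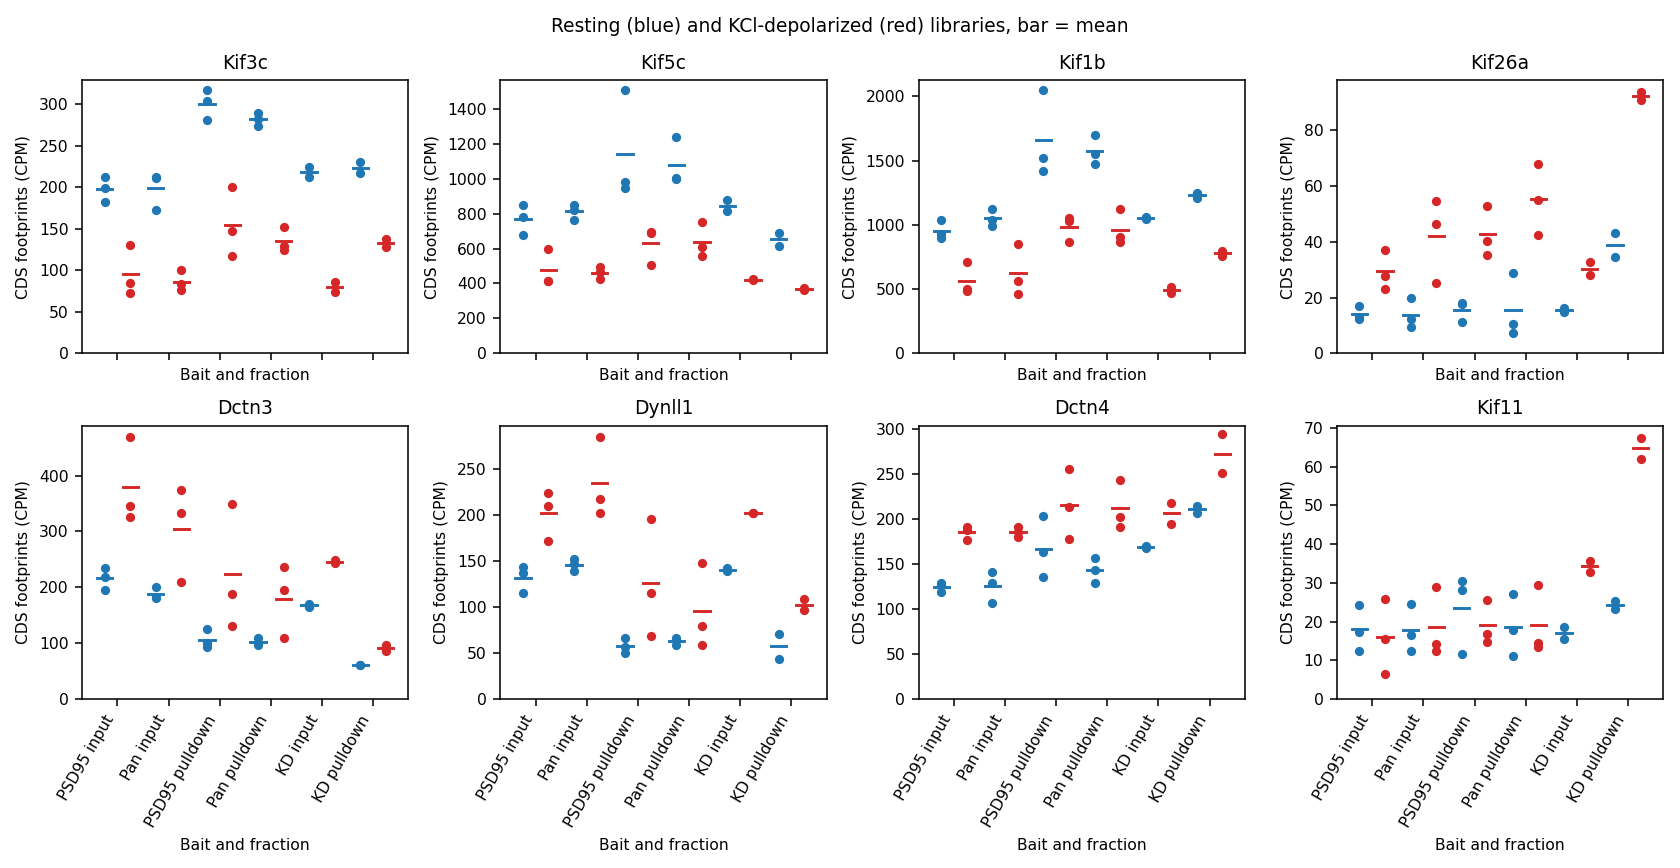
CDS footprints in CPM (y axis) of 8 members in resting (blue) and KCl-depolarized (red) libraries, by bait and fraction (x axis), with 1 point per library and a bar at the mean; KD is the eIF4G2 knockdown. Kif3c falls in each of the 6 pairs of groups, from 199, 183 and 212 to 130, 72.9 and 84.7 in the TurboID-PSD95 inputs, and Kif26a rises in each.

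Where the footprints lay within the CDS was a readout the choice of members did not use. Dync1h1, on chr12:110601605-110666691 of mm10 with 77 coding segments, had 29.2% ± 3.43 of its CDS footprints past the midpoint of the CDS in the inputs of the KCl experiment and 36.2% ± 4.06 in the pulldowns (SD, n = 12 each). The pulldown was higher in 12 of 12 pairs, by 7.01 percentage points (exact two-sided permutation test over pairs, p = 0.000488, the smallest this design allows). The 12 pairs come from 3 replicate sets whose samples were processed together, and the test counts them as separate. Averaged within a set, the shifts were 9.78, 5.32 and 5.92 points, and 3 sets cannot give an exact p below 0.25. The 6 TurboID-PSD95 pairs gave 6.29 points and the 6 Pan-TurboID pairs 7.72 (exact p = 0.03125 for each, the smallest possible), with the same 3 sets behind each. In resting TurboID-PSD95 neurons the values were 31.4%, 31.9% and 31.4% in the inputs and 42.2%, 37.4% and 35.7% in the pulldowns, with no overlap.

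DHPG inputs had 42.5%, 42.9% and 41.9% and the pulldowns 54.1%, 54.0% and 53.3%, a difference of 11.4 points for which 3 pairs cannot give an exact p below 0.25. The 4 knockdown pairs, from 2 replicate sets, gave 10.2 points, where the smallest exact p is 0.125 over pairs. The opening 1455 nt of the CDS, a run of whole coding segments at its start, held 29.2% ± 1.80 of Dync1h1 footprints in resting TurboID-PSD95 inputs and 14.1% ± 2.37 in the pulldowns (SD, n = 3). With DHPG it held 16.6% ± 0.83 and 6.17% ± 0.23. Footprints near the start of the CDS were thus a smaller part of the pulldown than of the input.

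Of the members, 19 had at least 10 coding segments and at least 100 counts in every library, and 11 of them had the larger share past the midpoint in the pulldown of all 19 pairs. The median shift was 34.1 points for Dync1i2, 34.0 for Dctn4, 30.4 for Dync1i1, 28.9 for Dctn1, 21.6 for Dync1li1 and 18.7 for Dync1li2, so several dynein and dynactin subunits shifted further than the heavy chain at 7.38. Dync1i2 had 39.5%, 38.6% and 42.7% in resting TurboID-PSD95 inputs and 77.1%, 76.8% and 83.2% in the pulldowns, far apart. Kif1a did not follow, with -1.69 points and a higher share in 7 of 19 pairs, and Kif5c (4.81 points, 12 of 19) and Dctn2 (2.07 points, 14 of 19) were mixed. Among 1618 other genes that met the same limits, the median share was 43.4%, 40.4% and 40.6% in resting TurboID-PSD95 inputs and 59.0%, 57.1% and 59.0% in the pulldowns, so a shift of this kind was not particular to motor genes. In each of these pairs the median rose further than the share of Dync1h1. How many of the other genes rose in all 19 pairs was not counted, so the 11 members have no share to be set beside.

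**Figure D4:**
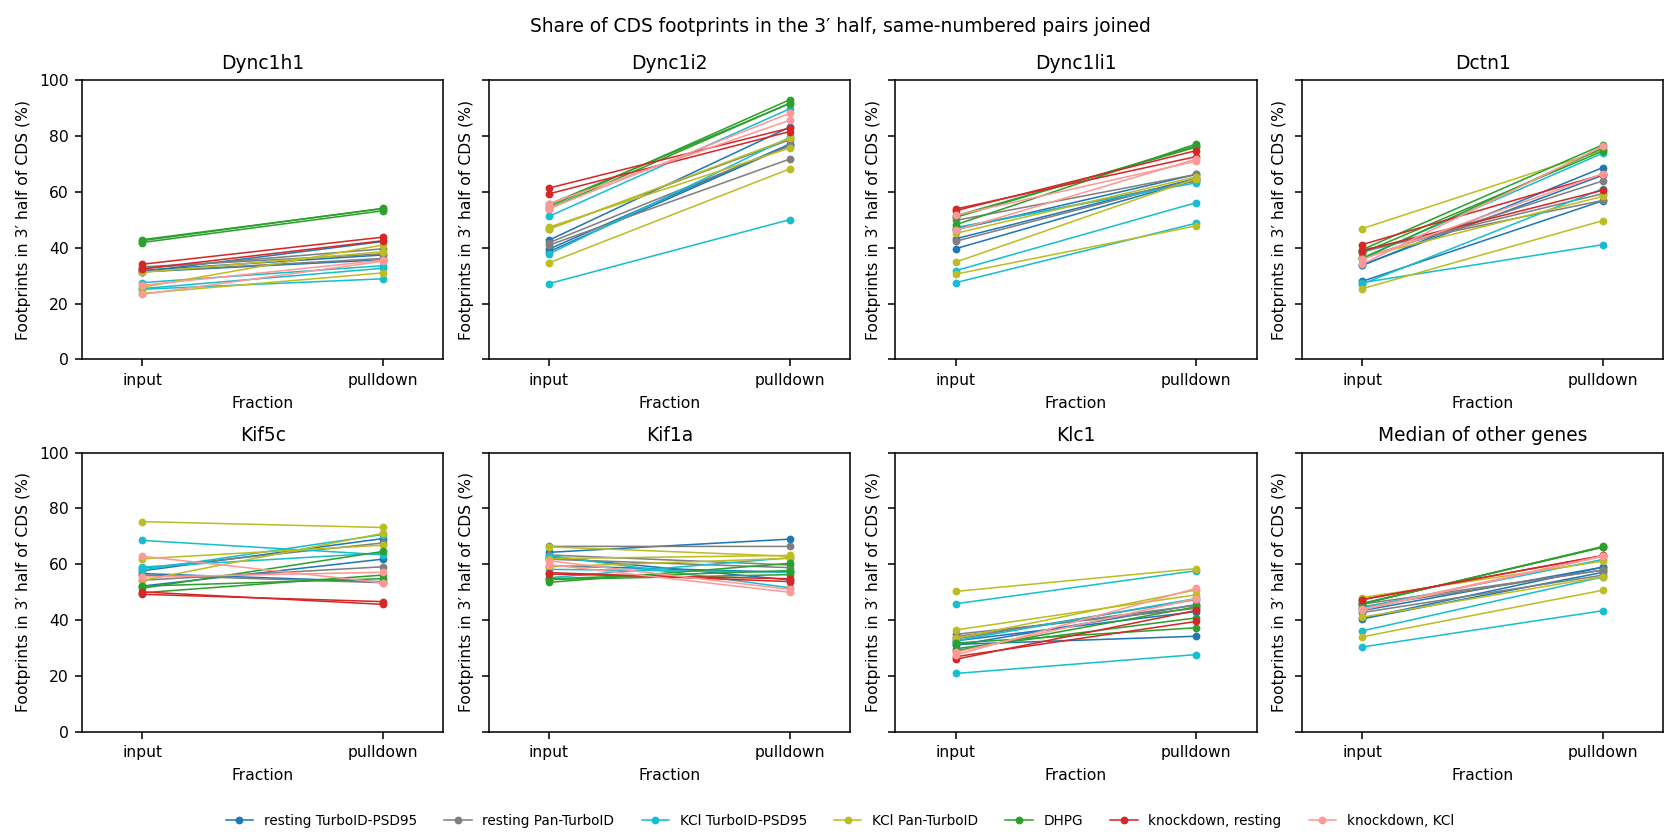
Share of CDS footprints past the CDS midpoint (y axis, %) in input and pulldown (x axis) for 7 members and for the median of 1618 other genes, with same-numbered pairs joined and coloured by group. The share of Dync1h1 rises in 19 of 19 pairs and that of Kif1a in 7.

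Footprints in the 5′ UTR were described as their share of 5′ UTR plus CDS counts, summed over the 64 members with an annotated 5′ UTR. Because 5′ ends were counted with no offset, a ribosome that has only begun the CDS is counted upstream of it. Group means were 12.2% to 22.9% in inputs and 3.49% to 8.01% in pulldowns. In resting TurboID-PSD95 neurons they were 16.4% ± 2.15 and 4.28% ± 1.24, against 20.3% ± 3.07 and 7.74% ± 2.54 for 20811 other genes (SD, n = 3). Of 39 members with at least 3800 counts in all, 19 (48.7%) had a lower share in the pulldown of all 19 pairs, beside 37.8% of 8503 other genes of that depth. Kif5b, for example, had 28.5%, 42.5% and 33.9% in resting TurboID-PSD95 inputs and 10.5%, 10.4% and 10.7% in the pulldowns, and Kif21b went from 34.2% over all inputs to 11.1% over all pulldowns.

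Dynll2, Dynlt1b and Dynlt3 were exceptions, with a lower share in only 9, 9 and 8 of 19 pairs and median differences of 0.036, 0.37 and 2.51 points. Dynll2 had 78.6% ± 7.15 in the inputs and 77.6% ± 6.27 in the pulldowns (SD, n = 19 each). Its 5′ UTR of 298 nt holds no ATG, while that of Kif3c, of 791 nt, holds 6, and an ATG was present in the 5′ UTR of 45.3% of the members and 55.2% of 20875 genes. A match is a description of the annotated letters only.

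The 5′ UTR share rose with KCl in all 8 input pairs for 5 of these 39 members (12.8%), close to the 11.2% of the 8503 other genes. Their median increases were 21.3 points for Kif3c, 21.1 for Kif21b, 13.9 for Kif5c, 13.7 for Kif5b and 10.7 for Kif21a. All but Kif21a are among the genes whose CDS footprints fell with KCl in the inputs. Kif3c had 31.0%, 41.4% and 47.1% at rest and 52.0%, 72.2% and 64.8% after KCl in TurboID-PSD95 inputs, and 43.0% and 44.6% against 73.2% and 76.9% in the knockdown, with no overlap in either. Kif21b in the knockdown had 27.9% and 27.4% against 54.8% and 54.5%. A share rises when the CDS count falls, so it is not a separate measure of the CDS change, and the 5′ UTR counts themselves moved unevenly. Kif21b had 95.3 and 102 CPM in its 5′ UTR in resting knockdown inputs and 174 and 197 with KCl, and Kif3c had 169 and 171 against 203 and 285, with no overlap. In TurboID-PSD95 inputs Kif21b had 69.9, 101 and 119 against 159, 138 and 142, while the values of Kif3c overlapped, with 89.5, 129 and 189 against 141, 189 and 156. In Pan-TurboID inputs both overlapped, Kif21b with 71.3, 114 and 112 against 98.9, 128 and 176 and Kif3c with 98.0, 156 and 279 against 116, 148 and 165, lower after KCl in 2 of 3 pairs. These levels were not tested.

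**Figure D5:**
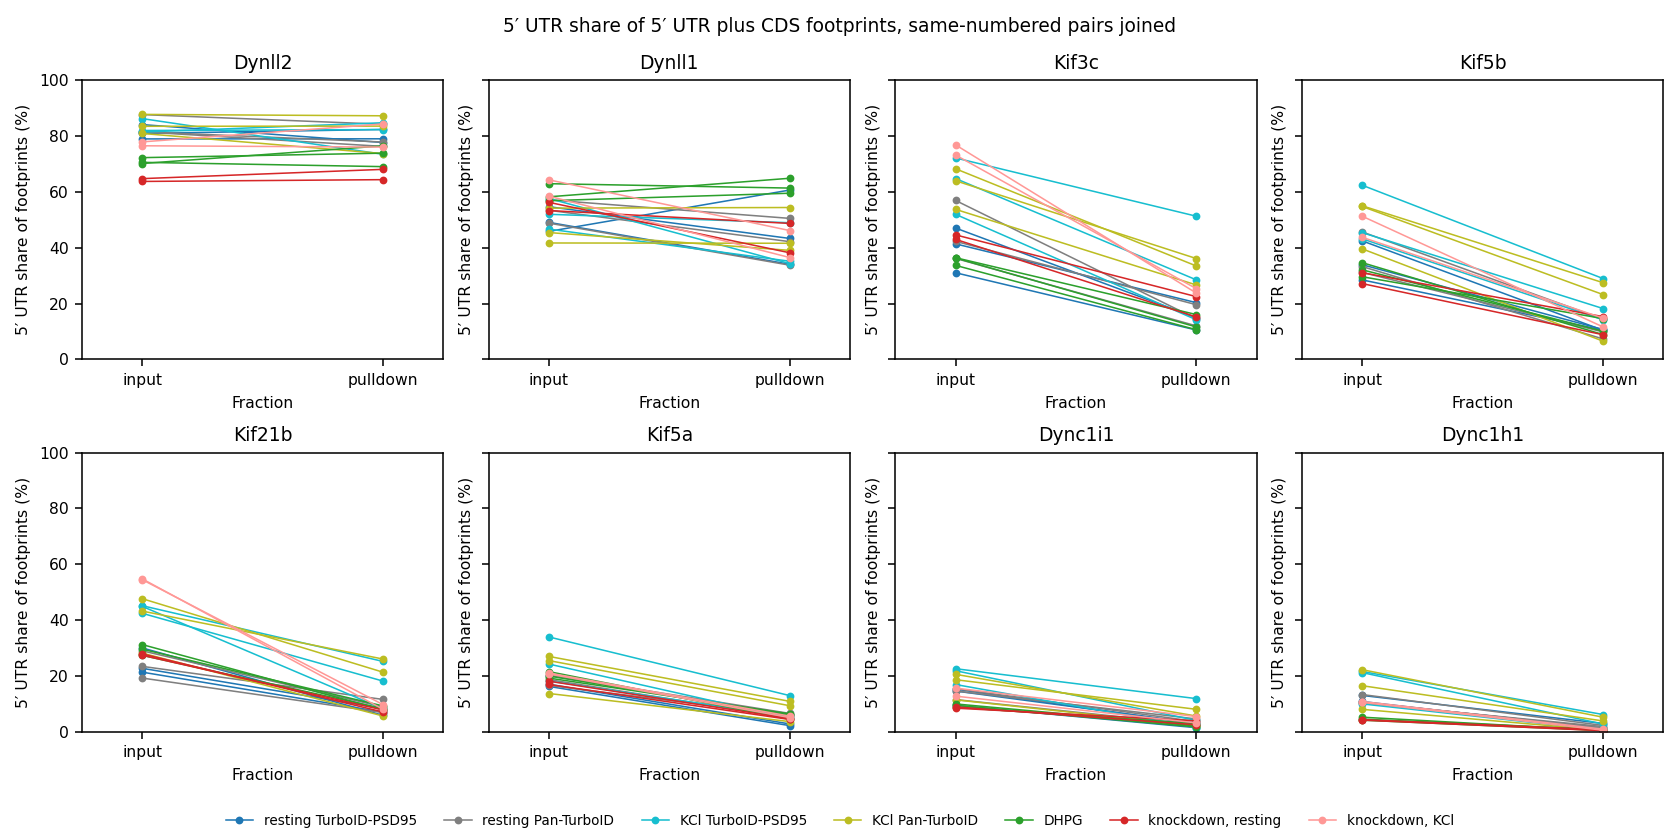
Share of 5′ UTR footprints in 5′ UTR plus CDS footprints (y axis, %) in input and pulldown (x axis) for 8 members, with same-numbered pairs joined and coloured by group. Kif3c, Kif5b and Kif21b fall in 19 of 19 pairs, while Dynll2 rises in some pairs and falls in 9 of 19.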

How the data were processed

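PL-Ribo-seq footprints were measured in 38 libraries, mapped to 14 groups by the labels. For knockdown libraries and DHPG inputs, a description in the labels names the cytosol, whereas their lentivirus field names PSD95-TurboID, which was used. The authors trimmed reads with Rfastp, split the pools with fastq-multx, cut molecular identifiers, aligned to mm10 with Rsubread and counted 5′ ends (reads of 25 to 100 nt, offset 0 per the file headers) with plastid, in segments of UCSC known genes. Versions of Rfastp, fastq-multx and plastid are not given in the sources used here. Deposited values are raw whole-number counts for each segment; file names mark removed ribosomal RNA and duplicates. The deposited RPKM columns were not used. Total counts per library ran from 5906281 to 35643247, and no molecule counts stand behind them, so precision was taken from the spread between libraries.

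CDS segments were summed over the longest transcript of each gene, by the length of 5′ UTR, CDS and 3′ UTR together. Another transcript can have a longer CDS. For Kif1bp the CDS used had 1155 nt, against 1854 nt in its transcript with the highest count. Of 67238 coding transcripts, 66664 (99.1%) matched GENCODE release M21 symbols and 574 did not. For 53 of the 65 members the transcript used was also the one with the highest count. CPM used TMM factors, and pair ratios an offset of 0.5 counts. The filter filterByExpr left 60 members in the KCl fit of 24 libraries, without Dynlrb2, Kif12, Kif28, Kif2b and Kif6, and 58 each in the DHPG fit of 6 and the knockdown fit of 8. A gene that passes through the group where it is high can only differ one way. Counts are over tested members, which does not remove this, and which members passed in that way was not examined. The test was edgeR 4.0.16 (R 4.3.3), its quasi-likelihood F test with Benjamini-Hochberg adjustment over all genes at 0.05. The methods' likelihood ratio test, DESeq2 1.42.0, other scaling, no filter, the transcript with the highest count, removal of the CDS length trend by an offset, the replicate block, the compared groups alone, the mean of both inputs and leaving out replicates were alternatives. Scripts were tested on simulated data.

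By the methods, input and pulldown of a number came from one monosome fraction, and resting and activated samples of a replicate were handled together. Inputs and pulldowns of the KCl experiment deviated together in 12 of 12 pairs (correlation 0.358 to 0.710).

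The members named per comparison were, on each side, the 3 called members of smallest p whose same-numbered pairs all moved that way, the 5 with the highest RPKM, and a list of principal subunits, with Eif4g2 and Dlg4 as checks. Further members are named where a class or a count is described, and these were chosen after their values were seen. Members and lists were chosen with earlier results of these data known. Repeated 25-base words were counted in the mm10 genome.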

Additional observations from a re-analysis of the deposited data

Results flagged for a closer look

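In 13 results on members, every pair of libraries moved one way under a contrast in one setting and the other way under the same contrast in another setting. They came from the 36 members that the naming rule selects. Over all 57 members tested in each experiment and 5 contrasts, 14 of 285 combinations did so, a share of 4.91%, near the 4.36% over 11777 genes. The one not described here is Dynlt1a, whose counts are uncertain. None of these differences was tested, and all of them set libraries of different experiments side by side, where treatment and experiment cannot be told apart. Values are mean log2 ratios of pairs and their difference, later setting minus earlier.

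For pulldown over input, Kif5c went from 0.54 in resting TurboID-PSD95 neurons to -0.11 in DHPG-treated ones, a difference of -0.66, and to -0.37 in the resting knockdown, a difference of -0.92. Set against the resting knockdown, Dctn1 went from 0.15 to -0.33 (-0.47), Dync1li1 from 0.34 to -0.21 (-0.54) and Dync1li2 from 0.24 to -0.24 (-0.48). In resting Pan-TurboID pairs, left out of these contrasts, Dctn1 went both ways, with 0.081, 0.058 and -0.059. All such pairs of Kif5c, Dync1li1 and Dync1li2 were positive. After KCl, Kif4 went from -0.88 to 1.30 in the knockdown, a difference of 2.19. With Pan-TurboID after KCl, Kif4 had 1.31, 0.25 and -0.052.

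For depolarized over resting TurboID-PSD95 inputs, Dynll2 went from 0.37 in the KCl experiment to -0.15 in the knockdown (-0.51), and Dynlt3 from 0.52 to -0.63 (-1.15). The knockdown pairs of Dynll2 were -0.29 and -0.0011, the latter hardly a change. In Pan-TurboID inputs, which this contrast leaves out, Dynlt3 went both ways, with -0.57, -0.30 and 0.65. For depolarized over resting TurboID-PSD95 pulldowns, Dync1li2 went from -0.14 to 0.57 (0.72), Kif21a from -0.75 to 0.22 (0.96), Kif3a from -0.30 to 0.10 (0.40), Klc1 from -0.26 to 0.13 (0.39) and Dynll2 from 0.67 to -0.64 (-1.31). In Pan-TurboID pulldowns of the KCl experiment, Dync1li2 had 0.073, 0.067 and 0.14, the direction of the knockdown. Klc1 (0.057, -0.15 and 0.061) and Dynll2 (-0.033, 0.61 and 0.54) went both ways there. All such pairs of Kif21a and Kif3a were negative.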

How the results depend on the processing

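Taking out the CDS length trend left 2 members called for pulldown over input in resting TurboID-PSD95 neurons, 0 in resting Pan-TurboID neurons and 0 with either bait after KCl (edgeR, with 11, 6, 6 and 5 at an unadjusted p under 0.05), 19 in the resting and 23 in the depolarized knockdown, and 3 for KCl in TurboID-PSD95 pulldowns. All 22 reversals arose under it. After DHPG the values were -0.14 for Kif5a, -0.59 for Kif5b, -0.29 for Kif1a, -0.49 for Kif1b, -0.077 for Kif3a, -0.058 for Kif3b, -0.18 for Kif21a and -0.39 for Kif21b. In the resting knockdown they were -0.26 for Dync1h1, -0.12 for Kif5a, -0.48 for Kif5b, -0.63 for Kif1a, -0.66 for Kif1b, -0.027 for Kif3b, -0.35 for Kif21a and -0.15 for Kif21b. In the depolarized knockdown they were -0.084 for Kif5a, -0.18 for Kif5b, -0.48 for Kif1a, -0.30 for Kif1b, -0.023 for Kif21a and 0.32 for Dynll1.

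Members called by other tools were, with DESeq2, 15 in resting Pan-TurboID, 19 and 15 in depolarized TurboID-PSD95 and Pan-TurboID pulldowns over inputs and 9 for KCl in Pan-TurboID pulldowns. In depolarized TurboID-PSD95 neurons the likelihood ratio test gave 11 and the mean of both inputs 17. With only the compared groups in the fit, these comparisons gave 23 in resting Pan-TurboID, 0 and 0 with the baits after KCl (19 and 15 at an unadjusted p under 0.05), 0 for KCl in TurboID-PSD95 pulldowns (14 unadjusted) and 3 in Pan-TurboID pulldowns, from fewer libraries. The replicate block that pairs input and pulldown gave 23 in resting Pan-TurboID and 26 and 23 with the baits after KCl, and it changed the calls of 50 named results in all. In the other contrasts, which the methods also pair, it left each count within 1.5 times. A correlation above 0.1 was taken as deviating together. Resting and depolarized libraries did so in 4 of 12 pairs, DHPG inputs and pulldowns in 0 of 3 and knockdown ones in 0 of 4. With 2 libraries per group, both knockdown pairs of a condition must give the same correlation, so the 4 are not separate values.

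Leaving out replicates gave 0 to 20 members in resting TurboID-PSD95, 0 to 5 in resting Pan-TurboID, 0 to 8 and 0 to 6 with the baits after KCl, 43 to 47 after DHPG, 19 to 26 and 36 to 37 in the resting and depolarized knockdown, 3 to 20 for KCl in inputs, 0 to 12 and 1 to 6 in TurboID-PSD95 and Pan-TurboID pulldowns, and 9 to 12 and 18 to 20 in knockdown inputs and pulldowns. The Dync1h1 position shift stayed between 5.62 and 7.85 points. Averaged within the 3 replicate sets, an alternative chosen after seeing the data, it was 7.01 with an exact p of 0.25, the smallest that 3 sets allow. A lone library left in a group was assumed to vary like the other groups. Of the named results under all alternatives, 3663 kept direction and side of the threshold, 138 passed it, 275 no longer passed it and 22 reversed. The causes were not tested. Depth limits Kif12, Kif2b, Kif28 and Dynlrb2, which could not be tested.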
